A study of Mus musculus with 3 samples.

Results

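The genes described here are 9 leukocyte adhesion genes, Vcam1, Icam1, Icam2, Sele, Selp, Selplg, Madcam1, Cd34 and Itgb7, chosen by name for their role in adhesion and not by their values. They are 9 of the 32285 genes in the count matrices, and all 9 had at least 1 UMI (unique molecular identifier, 1 captured transcript) in the kept cells of each library. Single cells of mouse vascular tissue were profiled with the 10x Genomics 3' kit after digestion of arteries. There were 3 libraries, 1 per group, all labelled WT for genotype and all taken at 3 weeks. The first came from mice given vehicle. The second is labelled TKI, for tyrosine kinase inhibitor, and was taken as the sunitinib group of the study's design. The third is labelled Yoda1 and was taken as the group given sunitinib and Yoda1, an agonist of the mechanosensitive channel PIEZO1, since the design names no group given Yoda1 alone. Dose, strain, sex, age and the number of animals per library are not stated in the labels. With 1 library per group, no difference between groups has a replicate check and no test was made. All intervals below are 95% intervals that cover counting error only, and a difference between libraries cannot be told apart from a difference between animals or preparations.

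Leukocytes leave the blood in ordered steps. Selectins on the endothelium (E-selectin from Sele, P-selectin from Selp) catch glycan-bearing ligands such as PSGL-1 (Selplg) and let the leukocyte roll. Immunoglobulin-type counter-receptors (VCAM-1, ICAM-1, ICAM-2, MAdCAM-1) then hold leukocyte integrins: VCAM-1 binds the integrin made of Itga4 and Itgb1, MAdCAM-1 the one made of Itga4 and Itgb7, and the ICAMs those built on Itgb2. CD34 is a sialomucin of endothelium and of other stromal and progenitor cells. In cultured endothelium Vcam1, Icam1 and Sele are classical targets of NF-kappaB, while P-selectin is kept in storage granules and reaches the surface without new transcription.

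The sequences before the start sites of 4 endothelial members are shown because NF-kappaB elements near the start are a known feature of several adhesion genes. They are the 250 bases upstream of the start in the RefSeq promoter table (build GRCm38.p6), 5′ to 3′ on the gene's strand. Capitals mark matches to GGANNTTCC on either strand or to the NF-kappaB decamer consensus.
Icam1 (chr9:21015690-21015939, plus strand): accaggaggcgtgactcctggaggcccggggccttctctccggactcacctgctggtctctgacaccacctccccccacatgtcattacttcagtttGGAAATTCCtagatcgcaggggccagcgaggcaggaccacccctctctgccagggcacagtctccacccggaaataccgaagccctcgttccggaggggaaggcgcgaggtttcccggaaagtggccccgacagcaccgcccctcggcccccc
Sele (chr1:164047984-164048233, plus strand): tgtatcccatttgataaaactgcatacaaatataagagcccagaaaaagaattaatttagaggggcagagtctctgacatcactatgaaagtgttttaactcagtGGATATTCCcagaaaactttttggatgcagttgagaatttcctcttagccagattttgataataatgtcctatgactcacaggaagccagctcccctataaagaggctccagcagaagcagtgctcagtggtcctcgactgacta
Madcam1 (chr10:79664309-79664558, plus strand): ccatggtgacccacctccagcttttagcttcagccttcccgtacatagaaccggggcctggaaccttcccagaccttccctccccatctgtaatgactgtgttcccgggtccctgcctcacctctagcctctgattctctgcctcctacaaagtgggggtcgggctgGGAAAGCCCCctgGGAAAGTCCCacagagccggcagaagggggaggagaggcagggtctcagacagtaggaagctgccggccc
Selp (chr1:164115014-164115263, plus strand): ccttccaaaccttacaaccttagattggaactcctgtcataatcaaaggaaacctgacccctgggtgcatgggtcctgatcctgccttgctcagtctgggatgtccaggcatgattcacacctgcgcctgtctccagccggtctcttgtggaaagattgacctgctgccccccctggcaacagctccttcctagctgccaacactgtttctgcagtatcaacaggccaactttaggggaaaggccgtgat
The 9-base motif GGANNTTCC, searched on both strands, matched once in Icam1 at bases -153 to -145, once in Sele at -145 to -137, and once in Madcam1 on the opposite strand at -70 to -62. The decamer matched in Madcam1 at -83 to -74 and at -70 to -61, and this second match overlaps the 9-base one. Selp had no match to either in this window, and neither had Cd34 or Itgb7, the other members in the table. Among 32851 promoters of the same length, 3.59% held GGANNTTCC and 7.25% held the decamer. The Sele window also held TATAAA at -49 to -44 and TGACTCA, the AP-1 element, at -73 to -67, which 12.4% and 4.46% of promoters held. The motifs were picked with these sequences in view, and a match is a run of letters, not a measured site. Of the 9 members, 6 were matched in the table.

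The genes lie on mouse build GRCm38 (the mm10 of the submitters' notes), with spans from the GENCODE vM21 annotation. Vcam1 spans chr3:116109949-116129688 on the minus strand, Icam1 chr9:21015985-21028817 on the plus strand and Icam2 chr11:106377656-106388075 on the minus strand. Sele (chr1:164048234-164057677) and Selp (chr1:164115264-164150026) are neighbours on the plus strand of chromosome 1, where Cd34 also lies (chr1:194938819-194961279, plus). Selplg spans chr5:113818536-113832644 (minus), Madcam1 chr10:79664559-79668537 (plus) and Itgb7 chr15:102215995-102231944 (minus). All are protein coding. Annotated genes lie across Vcam1 (Gm43109), Icam1 (Gm47079), Selp (Gm16587 and Gm16548) and Cd34 (Gm16897) on the other strand. No label or header states whether the counting used strand.

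The kept cells numbered 3947 from vehicle, 4148 from sunitinib and 3130 from sunitinib plus Yoda1, with median depths of 16561, 15902.5 and 5451.5 UMIs. The third library stood apart in makeup as well as in depth and in Cell Ranger version. Cells were classed by clusters named from marker genes, apart from smooth muscle. That class took every cell outside the endothelial clusters with at least 2% of UMIs from Acta2, Tagln, Myh11 and Cnn1. It held 3602 vehicle and 3803 sunitinib cells, but only 65 cells of the third library. That library instead held 1025 B-cell-like, 778 T-cell-like, 132 macrophage-like, 59 neutrophil-like, 242 fibroblast-like and 343 capillary-type endothelial-like cells, classes that had at most 10 cells in either of the others. The fibroblast-like cluster also carried Scgb1a1, an airway secretory gene, at 6956 CPM (the gene's UMIs scaled to the summed UMIs of the class in the usual way) in this library, with a UMI in 8.68% of its cells. Car4, a marker of capillaries that includes those of the lung, was at 272 CPM in the capillary-type cells. Haemoglobin RNA ran through most of its classes, for example Hbb-bs at 23162 CPM in the capillary-type cells. Barcodes of kept cells shared between libraries numbered 2, 1 and 5 for the 3 pairs.

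Large-vessel endothelial-like cells formed a single cluster at the resolution used, led by Cytl1, Ptprb, Ramp2, Vwf and Pecam1. It had 170 cells from vehicle, 223 from sunitinib and 43 from sunitinib plus Yoda1. At clustering resolution 2 the class took other bounds in the third library: 152 of its cells formed a cluster with both large-vessel genes (Vwf and Cytl1 at 2497 CPM) and capillary genes (Cd36 and Gpihbp1 at 1132 CPM), which the naming rule put in the large-vessel class. All 3 markers of the class were detected in each library, with a summed level of 9802 CPM in vehicle, 9802 in sunitinib and 8381 in sunitinib plus Yoda1. The capillary markers Gpihbp1 and Car4 were at 0 in the vehicle and sunitinib cells. The labelled tissue, artery, thus had its smooth muscle and endothelial markers in the vehicle and sunitinib libraries, and few cells of either kind in the third.

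**Figure D1:**
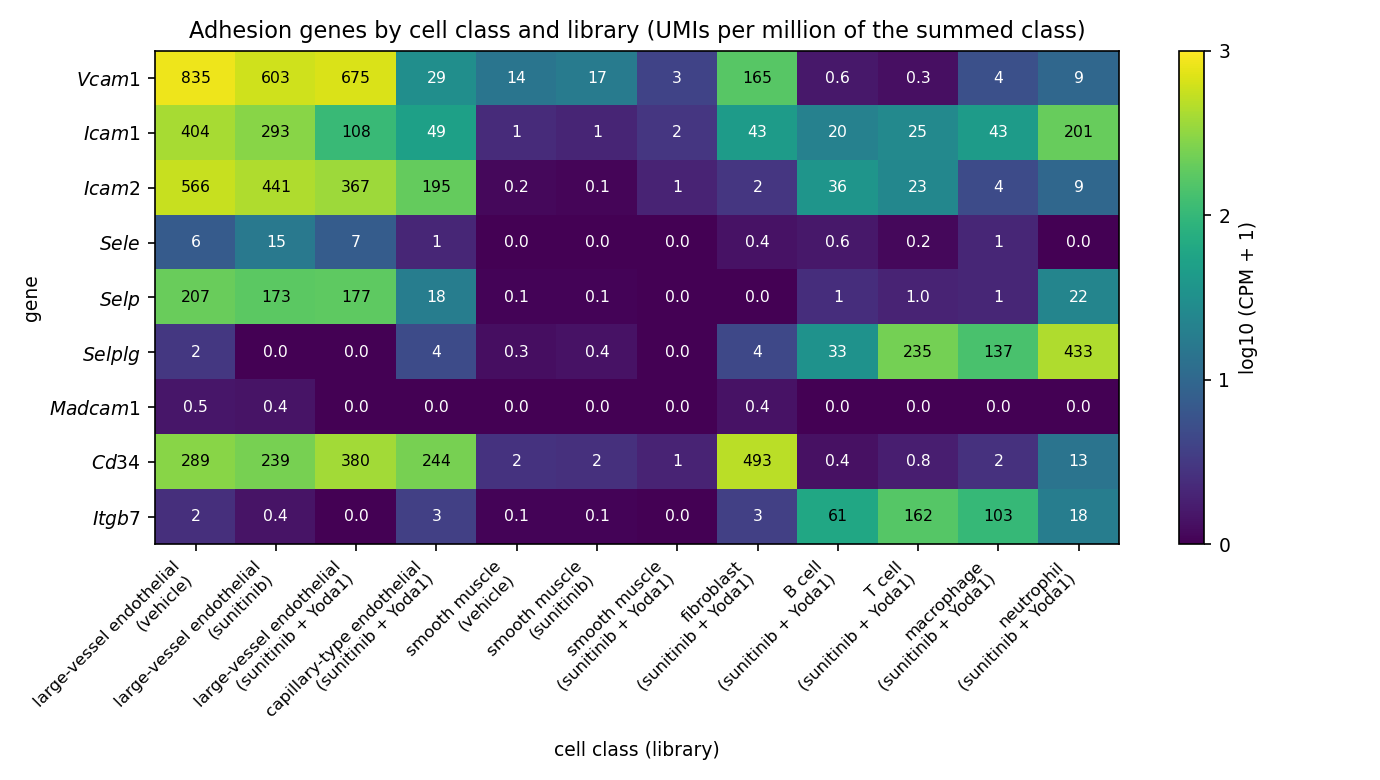
Level of each adhesion gene (rows) in each cell class and library (columns), as CPM of the summed class; colour is log10 of that level plus 1. Vcam1, Icam2 and Selp are brightest in the large-vessel endothelial columns, Cd34 in fibroblasts at 493, and Selplg and Itgb7 in the leukocyte columns. Icam1 is brightest in the large-vessel columns of vehicle and sunitinib, but in sunitinib plus Yoda1 neutrophils, at 201, are above large-vessel cells, at 108.

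The integrin counter-receptors Vcam1, Icam1 and Icam2 were well detected in the large-vessel endothelium of every library. Vcam1, which holds integrins of the Itga4 type, was at 835 CPM (795 to 877) in vehicle, 603 (571 to 636) in sunitinib and 675 (586 to 774) in sunitinib plus Yoda1. Icam1, the inducible ligand of the Itgb2 integrins, was at 404 CPM (376 to 434), 293 (271 to 316) and 108 (74.5 to 152) in the same order. Icam2, a largely constitutive endothelial ligand of the same integrins, was at 566 CPM (533 to 601), 441 (414 to 470) and 367 (302 to 442). Vehicle was the highest of the 3 libraries for each of these genes. The intervals of the other 2 overlapped for Vcam1 and Icam2 but not for Icam1, whose value in the third library rests on 33 UMIs in 43 cells. Of the 206 Vcam1 UMIs of those 43 cells, 5 cells held 144, and 17 cells had none. Since fewer than 50 large-vessel cells came from that library, no ratio to it was taken. Its matrix was made with another version of Cell Ranger, one that counts intron reads by default, and Vcam1, Icam1 and Icam2 hold 10870, 8473 and 8516 intronic bases. The effect of that version, of the treatment and of the library cannot be told apart.

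Of the selectins, Selp was well detected and Sele was sparse. Selp, whose protein is stored in endothelial granules, was at 207 CPM (187 to 228) in vehicle, 173 (156 to 191) in sunitinib and 177 (133 to 231) in sunitinib plus Yoda1. Sele, which endothelium makes on cytokine stimulation, had 12 UMIs in vehicle, 34 in sunitinib and 2 in sunitinib plus Yoda1, or 6.26 CPM (3.23 to 10.9), 15.3 (10.6 to 21.4) and 6.56 (0.794 to 23.7). The third library's interval overlapped both of the others for each selectin. Cd34 was at 289 CPM (266 to 315), 239 (219 to 260) and 380 (314 to 456). It was the only one of the 5 well detected members with its highest value in the third library, and there its interval barely touched that of vehicle. Of its 116 UMIs in the 43 cells of that library, 5 cells held 67, and 20 cells had none.

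The remaining members were at or near 0 in this endothelium. Madcam1, the counter-receptor of gut and mucosal venules, had 1 UMI in vehicle, 1 in sunitinib and 0 in sunitinib plus Yoda1. In all other classes it had at most 1 UMI. Selplg had 4, 0 and 0 UMIs and Itgb7 had 3, 1 and 0, against 1463 and 1006 UMIs in the T-cell-like cells. For the 0 counts of sunitinib plus Yoda1, 3 counts would correspond to 9.83 CPM, so levels below that were not detectable there.

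**Figure D2:**
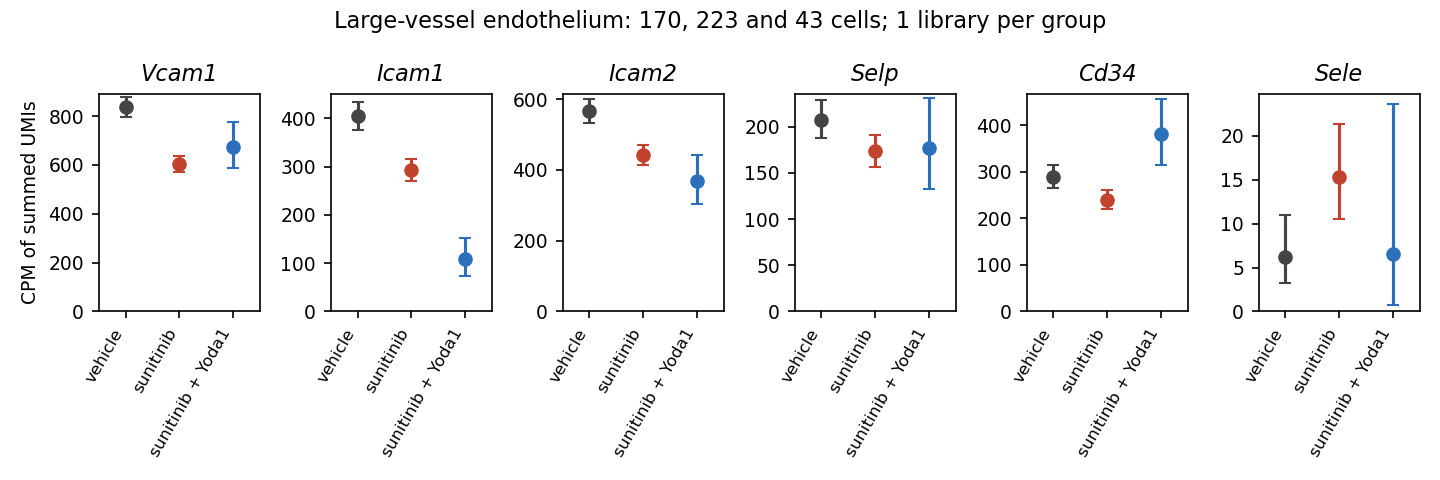
Level of 6 adhesion genes in large-vessel endothelial-like cells by library (CPM of summed UMIs, points with 95% counting intervals, 1 library per group). Vcam1 was at 835, 603 and 675 CPM in vehicle, sunitinib and sunitinib plus Yoda1, and Sele stayed at or below 15.3 CPM in all 3.

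Within a library, smooth muscle gave the nearest comparison, since both classes share their preparation. Vcam1 was at 13.7 CPM (12.8 to 14.6) in vehicle smooth muscle and 16.9 (15.9 to 17.9) in sunitinib smooth muscle. Icam1 was at 1.35 and 1.04 CPM there, and Cd34 at 1.77 and 1.60. Icam2 (12 and 7 UMIs) and Selp (4 and 4 UMIs) were nearly absent from the pooled smooth muscle, and Sele had no UMI in 3602 and 3803 cells. Of all genes with at least 20 UMIs over both classes, 28.9% were at least 1.5-fold higher in the endothelium in vehicle (12504 genes) and 29.1% in sunitinib (12653 genes), and 22.8% and 21.6% were that much lower. Icam2, Selp and, in sunitinib, Sele reached 20 UMIs only through the endothelium, so the members are given one by one and not as a count.

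In vehicle the log2 ratio of endothelium to smooth muscle was 5.93 (5.81 to 6.05) for Vcam1, 7.36 (7.07 to 7.65) for Cd34 and 8.23 (7.92 to 8.56) for Icam1. It was 11.67 (10.86 to 12.63) for Icam2 and 11.80 (10.44 to 13.69) for Selp. In sunitinib the same order began with Vcam1 at 5.16 (5.04 to 5.28) and ended with Icam2 at 11.94 (10.90 to 13.26), with Selp at 11.40 (10.03 to 13.29), Icam1 at 8.14 (7.77 to 8.53) and Cd34 at 7.22 (6.91 to 7.55). Vcam1 thus had the smallest of these 5 ratios in both libraries, and the intervals of Icam2 and Selp overlapped. Sele in sunitinib had a log2 ratio of at least 8.32, taken against 3 counts. Selplg was measured in vehicle only, and its 2.85 (0.84 to 4.43) rests on 4 endothelial UMIs in 2 cells.

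The share of cells with a UMI, after each cell was thinned to 2000 UMIs, showed the same contrast. For Vcam1 it was 60.7% of 150 vehicle and 60% of 180 sunitinib large-vessel cells, against 1.42% and 1.16% of smooth muscle cells. Without thinning these shares were 82.4%, 77.1%, 7.0% and 5.84%, at median depths of 8470, 6854, 16882 and 16261 UMIs. For Icam2 the thinned share was 69.3% in vehicle and 57.2% in sunitinib endothelium, against 0.028% in either smooth muscle. For Selp it was 36.0% and 23.3%, against 0.028% and 0.055%. Thinning left out 20 and 43 shallower endothelial cells.

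The number of the 5 well detected members (Vcam1, Icam1, Icam2, Selp and Cd34) with a UMI was counted per cell. In thinned vehicle large-vessel cells their single shares were 60.7%, 46.0%, 69.3%, 36.0% and 35.3% in that order. The count expected from such shares alone was not worked out, so the values below do not measure joint expression. The 5 genes were picked as well detected in this class, which favours it over the other classes. With cells thinned to 2000 UMIs, 48.0% of the vehicle cells had a UMI of at least 3 of the 5 genes, as had 40% of the sunitinib cells and 27.3% of the 33 cells of the third library. Cells with none of the 5 made up 4.67%, 10.0% and 18.2%. In smooth muscle 98.0% of vehicle and 98.3% of sunitinib cells had none, and no cell had 3. Of 269 capillary-type cells, 1.49% had at least 3 and 42.0% had none.

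**Figure D3:**
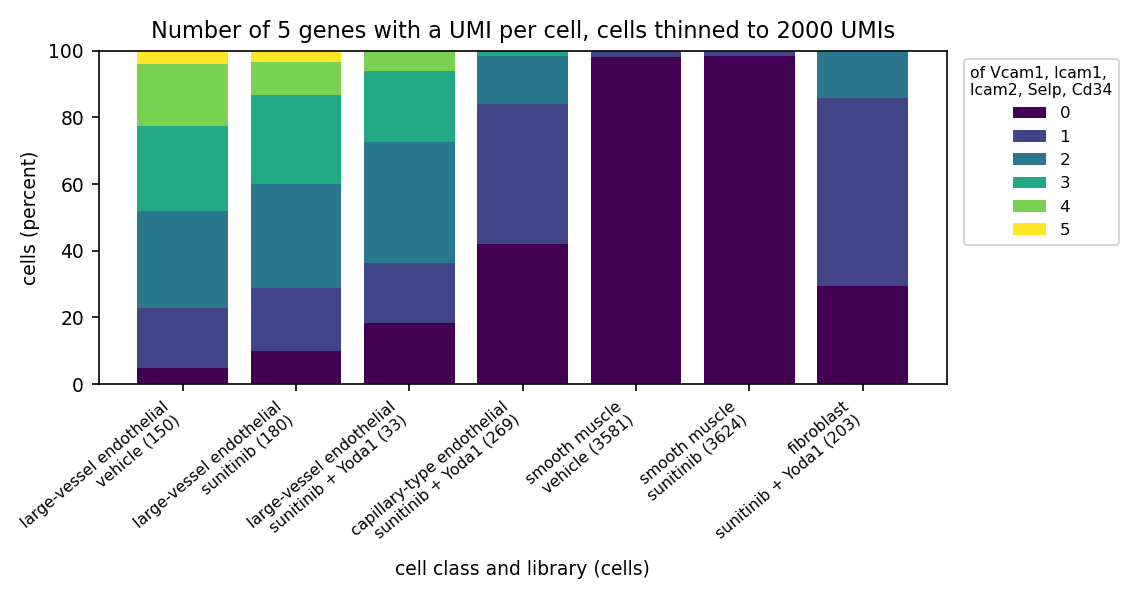
Percent of cells (y axis) with a UMI of 0 to 5 of the genes Vcam1, Icam1, Icam2, Selp and Cd34 (colours) after thinning each cell to 2000 UMIs, by class and library with the number of cells. Cells with 3 or more genes make up 48.0% of vehicle large-vessel endothelium, 1.49% of capillary-type endothelium and none of smooth muscle.

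Set against vehicle, 5 of the members had lower levels and 1 a higher level in sunitinib large-vessel endothelium. The log2 ratio of sunitinib to vehicle was -0.47 (-0.58 to -0.36) for Vcam1, -0.47 (-0.62 to -0.31) for Icam1 and -0.36 (-0.49 to -0.23) for Icam2. It was -0.28 (-0.45 to -0.10) for Cd34 and -0.26 (-0.46 to -0.05) for Selp. Each of these 5 intervals lay below 0, and none of the 5 values reached the 1.5-fold used here to call a gene. Sele was 2.44-fold higher, a log2 ratio of 1.29 (0.30 to 2.37). So 0 of 6 measured members were called lower and 1 of 6 higher, beside 5.81% of 9655 genes called lower and 11.3% called higher. The members' median log2 ratio was -0.32, and the median of all genes was 0.11. With median-of-ratios scaling the median of all genes moved to 0.01 and that of the members to -0.42. The calls over all genes then became 7.93% lower and 8.20% higher, with the same 0 and 1 members called.

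The Sele call rests on few cells. Sele was found in 9 vehicle and 9 sunitinib cells, and 3 of the sunitinib cells held 24 of its 34 UMIs. After thinning, the log2 ratio of Sele was 0.32, with too few UMIs to count as measured. The cells with a Sele UMI were deep, with medians of 23011 and 24568 UMIs against 8055 and 6707.5 in the rest. They carried Vcam1 at 1426 CPM (1260 to 1608) in vehicle and 1471 (1305 to 1653) in sunitinib. The large-vessel cells with no Sele UMI had Vcam1 at 771 CPM (731 to 814) and 521 (490 to 553). Icam1 was likewise at 643 and 572 CPM in the cells with Sele and at 378 and 266 in those without. Selp was at 359 and 286, beside 191 and 162, and Cd34 at 456 and 338, beside 272 and 230. Icam2 did not share this contrast, at 574 and 380 CPM in the cells with Sele and 565 and 447 in those without. The part of depth in this contrast was not tested.

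Vcam1 was spread unevenly over the endothelial cells too. In vehicle 86 of 170 cells had 5 or more Vcam1 UMIs, and in sunitinib 77 of 223, with medians of 5 and 3 UMIs per cell and highest values of 140 and 108. Its share of cells with a UMI, at equal depth, was nearly the same in the libraries (60.7% and 60%). Averaging the CPM of single cells gave a log2 ratio of -0.21, against -0.47 from the summed UMIs. Icam1 and Selp differed more after thinning, at -0.78 and -0.70, both then past 1.5-fold.

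Several genes of other cell types or states also differed in this comparison. The smooth muscle markers, all 4 detected, summed to 6137 CPM in vehicle and 7877 in sunitinib endothelium. Leaving out the 12 vehicle and 15 sunitinib cells with at least 2% contractile UMIs left the log2 ratios of Vcam1 and Icam1 at -0.47. Cd74, the invariant chain of antigen presentation, was at 1147 CPM in vehicle, 293 in sunitinib and 22.9 in sunitinib plus Yoda1 large-vessel cells. B-cell markers there were at 1, 0 and 7 UMIs. Of the 5 T-cell markers, all were detected in vehicle with 33 UMIs and 1 in sunitinib with 2 UMIs. Of the 6 macrophage markers, 5 were detected in each, with 33 UMIs (17.2 CPM) in vehicle and 70 (31.5 CPM) in sunitinib, and Csf1r was at 0 in both. At equal depth the 84 vehicle cells with a Cd74 UMI had Vcam1 at 905 CPM (767 to 1061) and the 66 without at 712 (575 to 871). In sunitinib the 40 cells with Cd74 had Vcam1 at 613 (453 to 810) and the 140 without at 704 (609 to 809). Both pairs of Vcam1 intervals overlapped. Icam1 in the cells with Cd74 was at 565 (458 to 691) in vehicle and 200 (114 to 325) in sunitinib, intervals that did not overlap. In the cells without Cd74 it was at 417 (314 to 542) and 318 (255 to 391), which overlapped. For Vcam1, Icam2, Selp and Cd34 the intervals of the libraries overlapped in both kinds of cell. The part of Cd74-bearing cells in the difference between libraries was not tested.

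**Figure D4:**
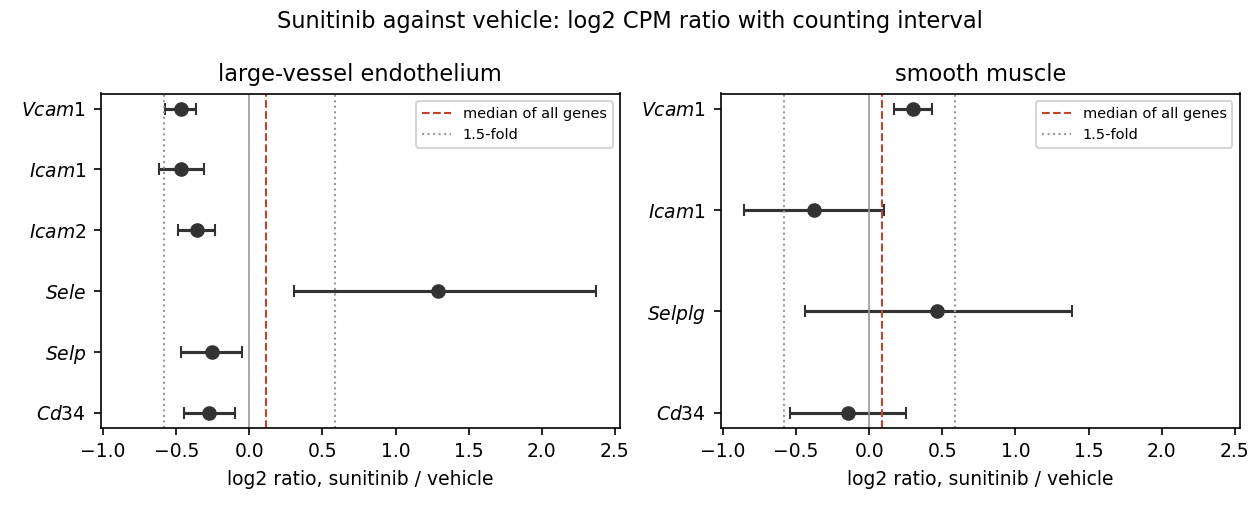
Log2 ratio of sunitinib to vehicle for members with at least 20 UMIs, in large-vessel endothelium and in smooth muscle, with 95% counting intervals; dotted lines mark 1.5-fold and the dashed line the median of all genes. In endothelium 5 members sit between -0.47 and -0.26 and Sele at 1.29, and in smooth muscle Vcam1 sits at 0.30.

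In smooth muscle, 4 members were measured and none was called in either direction, beside 4.75% of 13894 genes called lower and 7.31% called higher. Vcam1 had a log2 ratio of 0.30 (0.17 to 0.43), an interval above 0 and below 1.5-fold, whereas in the endothelium its interval lay below 0. The smooth muscle ratio rests in part on few cells, which a counting interval does not cover. The 5 highest cells held 310 of 945 UMIs in vehicle and 401 of 1054 in sunitinib. The difference between the classes was not tested. Icam1 was at -0.37 (-0.85 to 0.10), Cd34 at -0.14 (-0.54 to 0.25) and Selplg at 0.46 (-0.44 to 1.39). The members' median of 0.08 was close to the 0.09 of all genes. With median-of-ratios scaling 6.16% of genes were called lower and 5.38% higher.

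A small number of cells held most of the smooth muscle Vcam1. In vehicle 32 of 3602 cells (0.888%) had 5 or more Vcam1 UMIs and held 67.7% of them. In sunitinib 37 of 3803 (0.973%) held 76.1%. Their median share of UMIs from Acta2, Tagln, Myh11 and Cnn1 was 3.31% and 3.57%, beside 4.05% and 4.63% in cells with no Vcam1. The class is itself set by at least 2% of UMIs from these genes, so this share cannot tell what the high cells are. The endothelial genes Vwf and Icam2 had 0 UMIs in them, and Pecam1 was at 25.1 and 20.1 CPM, beside 26.3 and 22.0 in cells with no Vcam1. Cytl1, a marker of the large-vessel class, was at 5.80 and 4.23 CPM, beside 4.26 and 2.69. Icam1 was higher in them, at 7.73 CPM from 8 UMIs in vehicle and 25.4 from 24 UMIs in sunitinib, beside 1.19 and 0.676. They were deeper, with medians of 30225.5 and 24499 UMIs against 16691.5 and 16081. Dcn, a fibroblast gene, was at 416 CPM in those of vehicle and 8.46 in those of sunitinib, against 2.78 and 1.09 in cells with no Vcam1. The fibroblast markers Lum and Col1a1 were higher in the high cells of both libraries. Lum was at 10.6 and 4.23 CPM, beside 0.907 and 0.0693, and Col1a1 at 911 and 951, beside 444 and 421. Cells among the highest doublet scores numbered 1 of 32 and 3 of 37, beside 100 of 3350 and 109 of 3581 cells with no Vcam1. These scores come from a doublet search that marked too few cells to have worked, so doublets among the high cells were not tested.

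**Figure D5:**
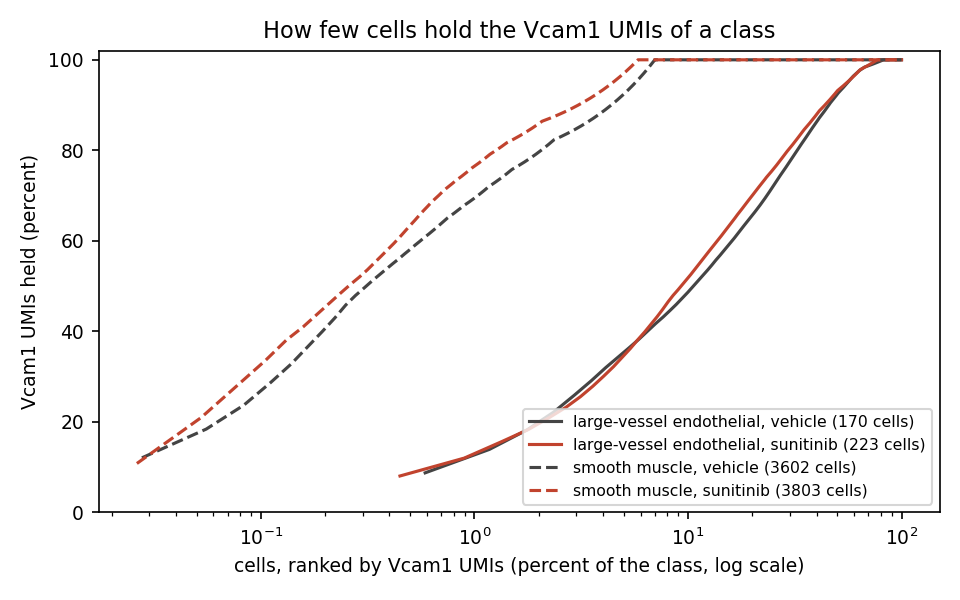
Share of a class's Vcam1 UMIs (y axis, percent) held by its highest cells (x axis, percent of the class, log scale) in large-vessel endothelium (solid) and smooth muscle (dashed) of vehicle and sunitinib. Under 1% of smooth muscle cells held 67.7% and 76.1% of the UMIs, while Vcam1 was found in 82.4% and 77.1% of endothelial cells.

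Smooth muscle was made of several clusters, to which the libraries gave unequal numbers of cells. Cluster 0 was mostly of sunitinib cells (1166 against 535) and cluster 2 mostly of vehicle cells (968 against 304). Within clusters, Vcam1 was at 2.52 CPM in vehicle and 7.17 in sunitinib in cluster 0, and at 3.22 and 5.43 in cluster 1. It was at 6.32 and 12.6 in cluster 2 and at 28.9 and 50.2 in cluster 3, which held 19 of the 32 and 17 of the 37 high cells. In cluster 5 it was at 25.2 and 19.6, and in cluster 6 at 13.5 and 2.45. Sunitinib had the higher value in 4 of these 6 clusters. The 65 smooth muscle cells of sunitinib plus Yoda1 had 3 Vcam1 UMIs in all, or 3.02 CPM (0.623 to 8.83).

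The third library allowed the members to be followed into other cells, with levels given side by side. Its capillary-type endothelium, led by Cd36, Gpihbp1, Cdh5, Ly6c1 and Cldn5, had Vcam1 at 29.2 CPM (21.9 to 38.1), Icam1 at 49.2 (39.6 to 60.4) and Selp at 17.8 (12.3 to 25.1). The 43 large-vessel cells of the same library were at 675, 108 and 177, and for each of these 3 genes the intervals did not overlap. Icam2 was at 195 CPM (175 to 216) in capillary-type cells and 367 (302 to 442) in large-vessel cells. Cd34 was at 244 (222 to 267), beside 380 (314 to 456). The intervals of these 2 genes did not overlap either. These cells share 1 preparation, but the comparison has no replicate and its large-vessel side is under the 50 cells set as a minimum.

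Fibroblast-like cells had the highest Cd34 of the classes, 493 CPM (466 to 521), with a UMI in 74.0% of cells. Their Vcam1 was at 165 CPM (149 to 181), above the 29.2 of the capillary-type cells, and their Icam1 at 43.5 (35.8 to 52.4), which overlapped the capillary-type interval. Icam2 had 5 UMIs and Selp 0 in these cells. The 14 lymphatic endothelial-like cells had Icam2 at 85.3 CPM (48.7 to 138). Their Vcam1 level of 117 CPM rests on 1 cell, which held 18 of its 22 UMIs, and 3 of the 14 cells had any. Below the large-vessel endothelium, Vcam1 was thus higher in fibroblast-like than in capillary-type cells, and higher in these than in smooth muscle of any library, with intervals that did not overlap. Cells that fell in no named class held Vcam1 at 194 CPM (173 to 217) in vehicle and 249 (216 to 286) in sunitinib. A few of them carried it: 24 of 151 vehicle cells had a UMI and 5 held 216 of the 315 UMIs, and 11 of 116 sunitinib cells had one and 5 held 174 of the 204.

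The leukocyte partners were read in the same library. Selplg, the ligand of the selectins, was at 433 CPM (351 to 529) in neutrophil-like, 235 (223 to 248) in T-cell-like, 137 (120 to 155) in macrophage-like and 32.6 (28.0 to 37.8) in B-cell-like cells. No neighbouring intervals in that order overlapped. Capillary-type cells, which should lack it, had 3.79 CPM. Its share of cells at 2000 UMIs was 60%, 35.6%, 23.5% and 6.22% in those leukocytes and 0.372% in the capillary-type cells. Itgb7, the partner chain of Itga4 in the MAdCAM-1 receptor, was at 162 CPM (152 to 172) in T-cell-like, 103 (88.4 to 118) in macrophage-like and 60.6 (54.2 to 67.6) in B-cell-like cells. It was at 17.9 (4.87 to 45.8) in neutrophil-like cells, from 4 UMIs.

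Icam1 and Icam2 transcripts were found in leukocytes as well as in endothelium, though Icam2 was sparse in the macrophage-like and neutrophil-like cells. Icam1 reached 201 CPM (147 to 269) in the 59 neutrophil-like cells, higher than the 108 (74.5 to 152) of the large-vessel cells of that library, with intervals that just overlap. It was at 43.3 CPM in macrophage-like, 24.9 in T-cell-like and 20 in B-cell-like cells. Icam2 was at 36.2 CPM (31.3 to 41.6) in B-cell-like and 23.3 (19.7 to 27.4) in T-cell-like cells. It was at 3.84 CPM from 7 UMIs in macrophage-like cells and had 2 UMIs in neutrophil-like cells.

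Selplg and the integrin chains were also read in each of the 3 T-cell-like clusters. Cluster 8 carried Cd4 at 155 CPM, cluster 9 carried Cd8a at 247 and Ccl5 at 1273, and cluster 19, of 62 cells, carried Cd4 at 51.6 and no Cd8a UMI. Selplg was at 302 CPM (283 to 322) in cluster 9, 164 (148 to 180) in cluster 8 and 176 (140 to 219) in cluster 19. In the same order Itgb7 was at 155, 165 and 178 CPM with overlapping intervals, while Itga4 was at 166, 181 and 70.9. These clusters were made from the same counts, so their differences are a description.

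The other integrin chains followed the leukocyte classes. Itga4, shared by the VCAM-1 and MAdCAM-1 receptors, was at 282 CPM in B-cell-like, 166 in T-cell-like, 246 in macrophage-like and 255 in neutrophil-like cells. Itgal, the alpha chain of the receptor for the ICAMs, was at 47.1, 105, 51.0 and 214 CPM in that order. Its partner Itgb2 was at 23.2, 82.9, 274 and 304. Itgb1, the other partner of Itga4, was not confined to leukocytes: it was at 42.8, 99.0, 265 and 98.3 CPM in them and at 909 and 972 in vehicle and sunitinib large-vessel endothelium. In those endothelial cells Itga4, Itgal and Itgb2 had levels of 1.04 CPM or less.

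Genes around the adhesion steps were read from 7 lists in the sunitinib to vehicle comparison of large-vessel endothelium. Of 14 genes that carry or end inflammatory signals to adhesion genes, all were measured, 6 were called lower and none higher. Over all 9655 genes, 5.81% were called lower and 11.3% higher. The median log2 ratio of the 14 genes was -0.39. The lowest were Tnfrsf1b, a TNF receptor, at -1.18 (-2.06 to -0.34) and Nfkbia, the NF-kappaB inhibitor that is itself induced by NF-kappaB, at -1.01 (-1.15 to -0.88). The highest were Rela, an NF-kappaB subunit, at 0.31 (0.01 to 0.63) and Nfkb2 at 0.16 (-0.46 to 0.78). The other 4 called were Irf1, Tnfaip3, Il1r1 and Myd88, and the intervals of the last 3 included 0. These 4 were named after their values were seen.

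Of 10 arrest chemokines and their carriers, 5 were measured and 2 were called lower, beside 5.81% of all 9655 genes. Cxcl10, an interferon-induced chemokine, had 67 UMIs in vehicle and 7 in sunitinib, a log2 ratio of -3.47 (-4.84 to -2.35). Cx3cl1, a membrane-bound chemokine, was at -1.15 (-1.79 to -0.53). Cxcl12 and Cxcl16 were at 0.19 and 0.05. A list of 5 flow-responsive and endothelial regulators was measured in full and none was called. In it Klf2, Klf4, Erg and Nos3 are known to restrain adhesion genes, while Gata2 is known to activate Vcam1. The values were Klf2 at -0.50 (-0.57 to -0.43), Klf4 at -0.38 (-0.49 to -0.28), Gata2 at -0.13 and Erg at 0.28.

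Of 13 rolling ligands and selectins, 7 were measured, with 1 called lower and 1 higher, beside 5.81% and 11.3% of all genes. Spn, a leukocyte sialomucin, was called lower on 16 and 4 UMIs, and Emcn, an endothelial sialomucin, was called higher at 1.07 (0.83 to 1.32), from 101 to 212 CPM. Cd44 was at -0.53 and Gcnt1 at 0.34. None of the 11 measured of 12 junction genes was called, from Jam2 at -0.48 and Plvap at -0.41 to Mcam at 0.50 and Jam3 at 0.56. None of the 9 measured of 10 anchors of ICAM and VCAM in the cytoskeleton was called, from Cttn at -0.24 and Msn at -0.22 to Ctnnd1 at 0.15 and Rhog at 0.35. None of the 4 measured of 10 leukocyte integrin genes was called, with Rap1b at -0.22, Tln1 and Fermt3 at -0.10 and Itgb1 at 0.10. The medians of these 4 lists were -0.09, -0.05, 0.01 and -0.10, beside 0.11 over all genes.

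In smooth muscle the same comparison called 4 of 6 measured chemokine genes lower, with a median of -0.75. Over all 13894 genes, 4.75% were called lower and 7.31% higher. Cxcl1, a neutrophil chemokine, was at -1.87 (-2.10 to -1.65) and Cxcl10 at -1.78 (-2.18 to -1.40), while Cxcl12 was at -0.25 and Cxcl16 at -0.02. The other 2 called were Ccl19 at -0.85 and Cx3cl1 at -0.66, named after their values were seen, as was Nfkbia below. Of the 14 inflammatory signal genes 3 were called lower and none higher, with Irf1 at -1.75 (-1.85 to -1.66) and Tnfaip3 at -1.27 (-1.60 to -0.96) lowest. Nfkbia, at -0.70, was the third called, and Tnfrsf1a was at 0.15. Of the 5 flow-responsive and endothelial regulators, 1 was called lower, Gata2 at -0.79 on 63 and 33 UMIs; Klf4 was at -0.45, Erg at 0.26 and Nos3 at 0.43. The rolling list had 1 of 5 measured called higher (Fut4, on 11 and 15 UMIs) and the integrin list 1 of 5 called lower (Fermt3, on 21 and 7 UMIs). The 10 measured junction genes and the 10 anchors had none called, with medians of 0.07 and -0.07.

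The genes most like Vcam1 over the 12 class and library sums of at least 50 cells, by Pearson correlation of log2 (CPM + 10) among 12907 genes, were Tpbg (0.966), Tm9sf1 (0.955), Bmp4 (0.954), Adh7 (0.950) and Pkhd1l1 (0.950). For Icam1 they were Golm1 (0.966), Wbp1l (0.952), Ptgs1 (0.934), Tapbp (0.923) and Kctd12 (0.912). For Selp they were Bmx (0.989), Pdzk1ip1 (0.970), Cenpt (0.959), Prrt4 (0.957) and Cytl1 (0.955). Sums of a library share its preparation and depth, Cytl1 is a marker of the endothelial class, and these values are a description.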

How the data were processed

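The authors deposited raw, unnormalized UMI counts for every gene and barcode of each library. Per the file headers, Cell Ranger 6.0.0 wrote the vehicle and sunitinib matrices and Cell Ranger 7.1.0 that of sunitinib plus Yoda1. The submitters' processing notes name mm10, Cell Ranger and Seurat; the annotation and the handling of intron reads are not stated in the labels or headers. The matrices hold 4491, 4506 and 5118 barcodes with 73901343, 66769480 and 28364203 UMIs.

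A barcode was kept with 500 UMIs or more, 300 genes or more and a mitochondrial share of 15% or less, and 544, 358 and 1988 barcodes were left out. All libraries were clustered together with scanpy 1.11.5 and leidenalg 0.10.2 (2000 variable genes, 30 principal components, 15 neighbours, resolution 1), without the members and pathway genes that are no cell type marker. A cluster was named where at least 3 markers of a class were in 25% of its cells and 2-fold above the other cells, unless its 10 leading genes held more markers of another class. This rule was changed after the clusters were seen: haemoglobin genes were set aside where another class qualified, and endothelial subtype markers were counted with the endothelial ones. Any cell outside the endothelial clusters with at least 2% of UMIs from Acta2, Tagln, Myh11 and Cnn1 was put in smooth muscle. This held whatever the name of its cluster, and cells of smooth muscle clusters under 2% were put in no named class. These names are rebuilt and may differ from those of the study. Scrublet marked 15 of 11225 cells (0.134%), too few to have worked, so no cell was removed as a doublet; leaving out the 341 highest scores was an alternative.

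UMIs were summed per class and library and given as CPM with exact Poisson intervals, and ratios with exact conditional binomial intervals. A gene was measured with at least 20 UMIs over both sums and called at 1.5-fold or more. A count of 0 was set to 3 counts per sum for a bound. Classes under 50 cells in a library entered no ratio. The scripts were tested on simulated data. All 9 members are named, with the 2 highest and 2 lowest measured genes of each list and the 5 highest correlations for likeness. Not all of the genes picked by these rules are printed. Values of Scgb1a1, Hbb-bs and Cd74, and those of cells with 5 or more Vcam1 UMIs or a Sele UMI, were chosen after values were seen. The members and lists were chosen with earlier results of these data known. Python 3.11.15, numpy 2.4.6, scipy 1.17.1 and pandas 2.3.3 were used.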

Additional observations from a re-analysis of the deposited data

How the results depend on the processing

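The members' log2 ratios of sunitinib to vehicle in large-vessel endothelium stayed below 0 for Vcam1 (-0.57 to -0.21), Icam1 (-0.78 to -0.26), Icam2 (-0.52 to -0.16) and Selp (-0.70 to -0.06) and above 0 for Sele (0.32 to 1.65) under all 11 alternatives, while Cd34 ran from -0.38 to 0.15 and was above 0 only after thinning. After thinning to 2000 UMIs, 2 members were called lower (Icam1 and Selp) and 0 higher of 5 measured, beside 8.96% and 15.8% of all genes. With members of at least 1 UMI counted, 2 of 8 were called lower in endothelium (10.4% of all genes), Itgb7 on 3 and 1 UMIs and Selplg on 4 and 0 UMIs as a bound, and 1 of 7 in smooth muscle (8.36% of all genes), Icam2 on 12 and 7 UMIs. With at most 5% mitochondrial UMIs, smooth muscle had 1 member called lower (Icam1, -1.49) and 1 higher (Vcam1, 0.63) of 3 measured, beside 6.48% and 7.32% of all genes; the cause was not tested. Vcam1 in smooth muscle stayed above 0 (0.21 to 0.63) under all 10 alternatives. The ratio of endothelium to smooth muscle kept its direction for Vcam1, Icam1, Cd34 and, in vehicle, Selplg. For Vcam1 the log2 ratio ran from 4.74 to 6.37 in vehicle and 3.62 to 5.85 in sunitinib. Icam2, Selp and, in sunitinib, Sele counted as measured only through their endothelial UMIs, so their unchanged direction is no check on the processing. The planned ratios of large-vessel endothelium in sunitinib plus Yoda1, to sunitinib and to capillary-type cells, were not run, since 43 cells is under the minimum of 50; at clustering resolution 2, clusters of 152 and 6 cells of that library were named large-vessel, so this depends on the clustering. No paired analysis was possible because each group has 1 library, and for the same reason no replicate could be left out. Sele, Selplg, Madcam1 and Itgb7 had 34 UMIs or fewer in each large-vessel sum.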
